A study of Mus musculus with 21 samples.

Results

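PTH(1-36), a fragment of parathyroid hormone (PTH), was compared with vehicle after 4 h in cultures of mouse osteoblasts, the cells that build bone. The comparison used 3 PTH(1-36) arrays (100 nM) and 3 vehicle arrays, 6 of the 21 arrays of the series, and all 22180 genes measured. A gene was represented by 1 transcript cluster, the array's unit of measurement, and where a gene had several clusters the one with the highest mean over the 21 arrays was taken. The osteoblasts were isolated from calvaria, the bones of the skull vault, of 7 to 10 day old C57BL/6J mice. They were used at passage 2, differentiated from day 3 to day 10 with ascorbic acid and β-glycerophosphate, and held 24 h without serum, and these steps were shared by every group. Cultures were prepared independently for each replicate. The p-values thus rest on the spread between separately prepared cultures within a group, estimated over all 7 groups of the series. The other groups used here were the human fragments hPTH(1-34) and hPTH(1-31), and the truncated bPTH(3-34), hPTH(7-34) and bPTH(7-34), 3 arrays each. All fragments were given at 100 nM except bPTH(7-34), a bovine amide with D-Trp12 and Tyr34, which was given at 1000 nM. The labels do not give the species of PTH(1-36). RNA was taken from whole cultures, so a change in the RNA of a cell and a change in the number of cells of a type cannot be told apart.

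PTH acts on osteoblasts through the receptor Pth1r, which couples to the G protein Gs, to adenylyl cyclase and to protein kinase A. Protein kinase A phosphorylates CREB, which binds cyclic AMP response elements in promoters, and restrains the salt-inducible kinases, which otherwise hold CREB coactivators and class IIa histone deacetylases in the cytoplasm. In bone the hormone is known for raising RANKL, the cytokine that osteoclasts need, and, when given intermittently, for adding bone. Fragments that keep the amino-terminal residues activate the receptor, while fragments that lack them bind it and activate it poorly.

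In all, 1603 genes, 7.23% of those tested, passed the test (adjusted p under 0.05, limma with Benjamini-Hochberg adjustment over 22180 genes). Of these, 817 (3.68%) were higher and 786 (3.54%) lower with PTH(1-36). The increases were larger than the decreases. At least 2-fold changes were seen in 160 genes that rose and 42 that fell, and at least 4-fold changes in 27 and 1. The 1603 included 701 genes (3.16% of those tested) with a change of at least 1.5-fold, 412 up and 289 down. The median change over all genes was -0.02 log2 units. The 3 PTH(1-36) arrays did not overlap the 3 vehicle arrays in 1575 of the called genes, against 4541 of all genes (20.5%). Calls were fewest where the signal was low: 0.826% of genes with a vehicle mean under 3 log2 units were called, and 16.6% of those between 8 and 10. A fit on the 6 arrays alone, which has fewer arrays from which to estimate the spread, called 606 genes, of which 599 were among the 1603. The files hold no detection call, and a group mean below the highest array median (medians ran from 3.52 to 3.59 log2 units) is not shown to be above background. Among the called genes named below this holds for the vehicle means of Il6, Nr4a3, Kcnk10, Cidea, Has1, Rorb, Pde4b, Pde4d and Klk1. It also holds for the PTH(1-36) means of Dusp27, Cys1 and Klk1. The folds of all these genes, where given, are ratios of the deposited signals only. The arrays correlated at 0.990 to 0.992 within the groups.

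**Figure D1:**
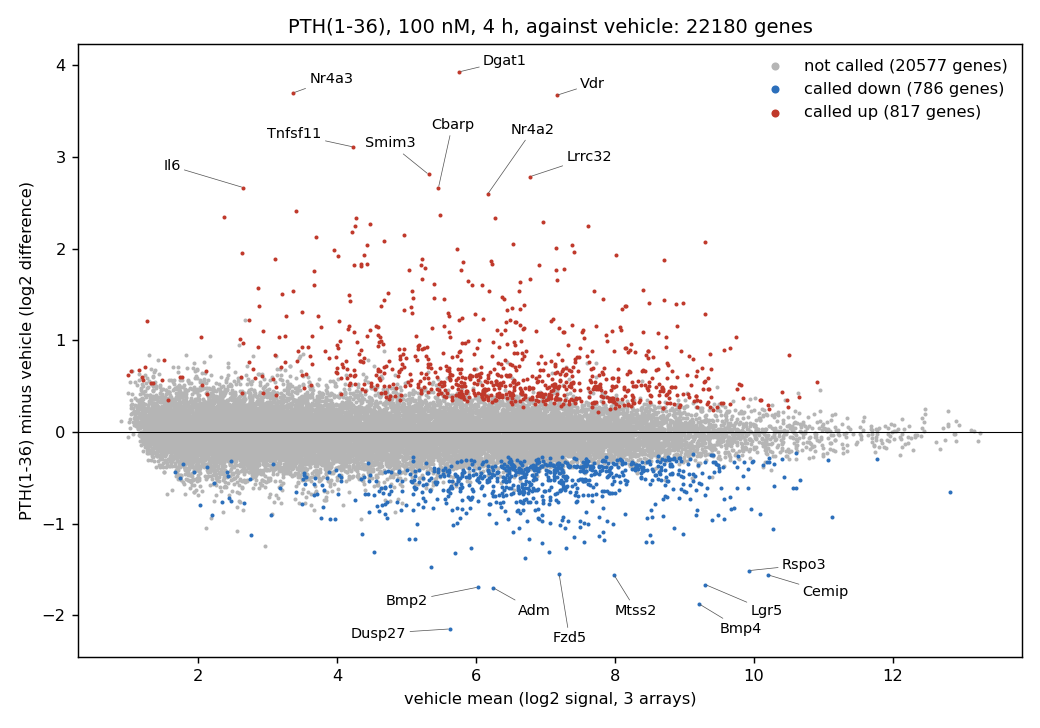
Each point is a gene, with its vehicle mean (log2 signal, 3 arrays) on the horizontal axis and its log2 difference, PTH(1-36) minus vehicle, on the vertical axis; red and blue points passed the test. The 817 genes called up reach 3.93 log2 units (Dgat1), and the 786 called down reach -2.15 (Dusp27).

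The cytokines that control osteoclasts were among the genes that moved most. Tnfsf11, which encodes RANKL (transcript cluster 17308817), had log2 signals of 4.18, 4.28 and 4.25 in the vehicle arrays and 7.36, 7.02 and 7.66 with PTH(1-36). Every treated array lay far above every vehicle array, an 8.63-fold increase (+3.11 ± 0.19 log2 units, standard error (SE) of the model; adjusted p = 2.98e-09). Tnfrsf11b, the decoy receptor osteoprotegerin that keeps RANKL from its receptor, went the other way. It read 6.70, 6.87 and 6.56 with vehicle and 5.07, 5.26 and 5.66 with PTH(1-36), 2.60-fold lower (adjusted p = 6.24e-06). Il6, a cytokine that acts on osteoclast and immune cells, rose from 2.69, 2.41 and 2.86 to 5.41, 5.03 and 5.52, a difference of 2.67 ± 0.25 log2 units (adjusted p = 6.36e-07). Tnf rose by 1.22 ± 0.16 log2 units, and Il34, a ligand of the macrophage growth factor receptor, fell by 0.95 ± 0.10. Of the 20 measured genes of this list, 3 rose and 3 fell, with a median change of -0.15. The third of those that fell was Csf1, the other ligand of that receptor, at -0.33 ± 0.08, and its call was lost without vehicle array 1 or 2 or PTH(1-36) array 3. Il1b, Lif and the RANKL receptor Tnfrsf11a did not pass the test (changes of +0.45, +0.08 and -0.17).

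Genes of the PTH receptor and of cyclic AMP signalling followed. Pth1r itself read 7.20, 7.30 and 7.12 with vehicle and 6.09, 6.11 and 6.37 with PTH(1-36), 2.02-fold lower with no overlap (adjusted p = 1.66e-05). Of the 15 measured genes of the receptor list, 2 rose: Ramp3, a receptor activity-modifying protein (+1.81 ± 0.15), and Gprc5a, an orphan receptor (+1.77 ± 0.15). In the 27 G proteins, adenylyl cyclases and protein kinase A subunits, the inhibitory G protein Gnai1 fell by 0.71 ± 0.10 and was the 1 member called down (2 without vehicle array 1 or PTH(1-36) array 3). Prkar1a, a regulatory subunit, stood at +0.25 ± 0.07, a call that was lost without any 1 of the 6 arrays. In all, 7.41% of this list was called, against 7.23% of all genes. Gnas, the gene of Gs itself, did not pass (-0.04, 95% interval -0.20 to 0.13).

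Among the phosphodiesterases, which break down cyclic AMP and cyclic GMP, the members that passed the test all rose. The changes of the whole list ran from -0.34 to 1.79, with 12 above 0 and 11 not called. Of 18 measured, 7 rose and 0 fell, and 6 of the 7 rose whichever single array was left out. The median over the list was 0.22. Pde10a read 5.32, 5.17 and 5.31 with vehicle and 7.02, 7.10 and 7.05 with PTH(1-36), 3.46-fold higher (adjusted p = 5.09e-10). Pde3b rose 2.77-fold, Pde7b 2.00-fold, Pde4d 1.91-fold, Pde4b 1.90-fold and Pde9a 1.63-fold. Pde4a, of the same cyclic AMP-specific family as Pde4b and Pde4d, did not pass (-0.14, 95% interval -0.36 to 0.08). Of 20 RGS proteins, which shorten G protein signals, Rgs2 (+0.39 ± 0.11) and Rgs4 (-0.78 ± 0.18) passed. Each is 5% of the list, against 3.68% of all genes up and 3.54% down. The call of Rgs4 was lost without vehicle array 2 or PTH(1-36) array 1, and that of Rgs2 without any 1 array other than vehicle array 2.

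In the list of CREB relatives, coactivators and salt-inducible kinases, 6 of 22 rose and 2 fell. Crem, whose short products repress cyclic AMP targets, rose by 1.16 ± 0.12 log2 units. All 3 salt-inducible kinases rose: Sik1 by 1.07 ± 0.11, Sik3 by 0.81 ± 0.08 and Sik2 by 0.49 ± 0.11. Hdac4, a deacetylase that these kinases phosphorylate, rose by 1.11 ± 0.10. Cited2, which competes for the coactivators CBP and p300, fell by 0.73 ± 0.11. Creb1 did not pass (+0.10, 95% interval -0.12 to 0.32). The remaining calls were Cited1 at +0.74, lost in 3 of the 6 fits with 1 array left out, and Mef2a at -0.26, lost in all 6.

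Among the 33 transcription factors of the early response, 13 rose and 3 fell, and 7 and 1 did so whichever array was left out (8 up without vehicle array 1 or PTH(1-36) array 1; 1 down without vehicle array 2 or any PTH(1-36) array). The median was 0.25. The orphan nuclear receptors of the Nr4a family led. Nr4a3 (cluster 17413945) rose from 3.17, 3.82 and 3.12 to 7.14, 6.93 and 7.14, a difference of 3.70 ± 0.19 log2 units (adjusted p = 2.83e-10). Nr4a2 read 6.55, 6.06 and 5.89 with vehicle and 8.85, 8.85 and 8.58 with PTH(1-36), 6.03-fold higher. Nr4a1 rose 3.05-fold. The bZIP factors Cebpb (2.37-fold), Nfil3 (2.01-fold) and Fosl2 (1.94-fold) also rose, as did Bhlhe40 (1.64-fold). Fosb fell by 0.78 ± 0.15. Fos was at +0.43 (95% interval 0.14 to 0.72, adjusted p = 0.0734) and did not pass at 4 h.

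Promoters were read for the cyclic AMP response element where a gene had a search window. The searched letters were the full element TGACGTCA and its shorter core TGACG, on both strands. A window covered the 250 bases before a start in RefSeq (GRCm38.p6), and 32851 windows were searched. The search did not cover all genes tested: 5262 had no window. Their promoters were not read, so an element before them is neither shown nor excluded. The full element is its own reverse complement, so each copy also counts as 2 overlapping cores, one on each strand. Of 622 genes called up with a window, 30 (4.82%) held the full element, against 7 of 621 (1.13%) called down, 2.23% of genes not called and 2.29% of all 16918 genes with a window. At least 1 core stood before 37.0% of genes called up, 25.4% of genes called down and 23.2% of all. Over all 32851 windows, 1.55% held the full element and 17.8% a core. These are counts of letters, given with no test. Dio2, the deiodinase that activates thyroid hormone, was the only member of the 30 genes with the highest changes whose window (21 had one) held the full element. Nr4a2 and Nr4a3 each held 4 cores, as 39 of the 16918 genes (0.231%) did with at least 4. The stretches below show Dio2 by rule. The others were chosen after their values were seen: Has1 and Dusp1 for the full element in list members that rose, Nr4a2 and Nr4a3 for their cores, and Il6 for a single core. Capitals mark the full element and the cores, and CGTCA is the core read on the other strand.
Dio2, chr12:90739114-90739145, minus strand: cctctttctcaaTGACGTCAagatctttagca
Has1, chr17:17855252-17855283, minus strand: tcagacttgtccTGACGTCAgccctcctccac
Dusp1, chr17:26508596-26508675, minus strand: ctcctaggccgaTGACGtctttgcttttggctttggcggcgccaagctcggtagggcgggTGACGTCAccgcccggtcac
Nr4a2, chr2:57124098-57124215, minus strand: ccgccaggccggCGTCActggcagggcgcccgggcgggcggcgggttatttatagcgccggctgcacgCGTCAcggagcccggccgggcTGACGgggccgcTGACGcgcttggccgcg
Nr4a3, chr4:48045062-48045174, plus strand: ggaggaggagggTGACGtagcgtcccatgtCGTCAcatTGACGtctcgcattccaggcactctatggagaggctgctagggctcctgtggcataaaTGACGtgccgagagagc
Il6, chr5:30012967-30012995, plus strand: gatgctaaacgaCGTCAcattgtgcaatc

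Beside these elements the measured changes were +1.98 ± 0.17 log2 units for Dio2, +0.77 ± 0.16 for the hyaluronan synthase Has1 and +0.62 ± 0.10 for the MAP kinase phosphatase Dusp1. Dio2 has a second, dimmer cluster on the array (mean 2.53), which read -0.14 ± 0.18. The full element also stood before genes that fell, among them Btg2 (-0.44), Fscn1 (-0.45) and Lmcd1 (-0.78), named after their values were seen.

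Dgat1, which joins the last fatty acid to triacylglycerol (cluster 17318502), had the highest change of all. Its vehicle arrays read 6.00, 5.63 and 5.65 and its PTH(1-36) arrays 9.65, 9.65 and 9.77, a 15.2-fold increase (+3.93 ± 0.10, adjusted p = 2.38e-14). Of the 35 measured genes of triacylglycerol storage and release, 7 (20%) rose, each of them whichever array was left out. In the same list 1 (2.86%) fell (3 without vehicle array 3), against 3.54% of all genes down. Cidea, a lipid droplet protein, rose 2.90-fold, the acyl-CoA synthetase Acsl4 2.35-fold, and Dgat2, which catalyses the same step as Dgat1, 1.77-fold. Plin3, a droplet coat protein, fell by 0.57 ± 0.09. In the list of cholesterol synthesis and uptake, 6 of 24 rose and 0 fell, 4 of them whichever array was left out. These 4 were the phosphomevalonate kinase Pmvk (4.15-fold), Hsd17b7 (1.77-fold), Cyp51 (1.47-fold) and Hmgcs1 (1.25-fold). The medians over both lists, 0.03 and 0.01, were close to that of all genes.

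Vdr, the vitamin D receptor (cluster 17321078), read 7.24, 7.24 and 7.00 with vehicle and 11.0, 10.83 and 10.67 with PTH(1-36). The increase was 12.8-fold (adjusted p = 6.92e-14), and the treated arrays lay more than 3 log2 units above the highest vehicle array. In the list of vitamin D, calcium and phosphate handling, 4 of 25 rose and 0 fell, with a median of -0.01. Beside Vdr these were the calcium pump Atp2b4 (+0.58 ± 0.09), the phosphate exporter Xpr1 (+0.38 ± 0.09) and the hormone Stc1 (+0.52 ± 0.15), whose call was lost without any 1 of the 6 arrays. Cyp24a1, the vitamin D 24-hydroxylase and a known target of the receptor, did not pass (+0.02, 95% interval -0.38 to 0.42).

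Several enzymes that make hyaluronan and its sugar precursors rose. Ugdh, which makes UDP-glucuronic acid, read 9.34, 9.24 and 9.33 with vehicle and 11.32, 11.32 and 11.49 with PTH(1-36), 4.21-fold higher (adjusted p = 3.32e-12). Has2, the main hyaluronan synthase of mesenchymal cells, rose from 7.35, 7.39 and 7.48 to 9.44, 9.33 and 9.35, a 3.91-fold increase. Gfpt2, the entry enzyme of the hexosamine pathway, rose 4.75-fold, and Uap1, which makes UDP-N-acetylglucosamine, 4.11-fold. Gfpt2 and Uap1 were set beside them after their values were seen. They are not on the list of hyaluronan and matrix proteases, in which 7 of 36 rose and 4 fell with a median of -0.02. Cemip, which depolymerises hyaluronan, went down from 10.16, 10.17 and 10.28 to 8.49, 8.65 and 8.79, 2.95-fold lower (adjusted p = 1.50e-08). Has3, a synthase with a vehicle mean of 3.58, did not pass (0.00, 95% interval -0.36 to 0.37). Of the proteases, the aggrecanase Adamts4 rose 3.12-fold and Adamts9 1.85-fold, while Adamts5 fell 1.78-fold and Mmp11 1.77-fold. The urokinase receptor Plaur rose 3.15-fold. Mmp13, a collagenase known as a PTH target in osteoblastic cells, was at +0.19 (95% interval -0.02 to 0.41) and did not pass at 4 h.

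**Figure D2:**
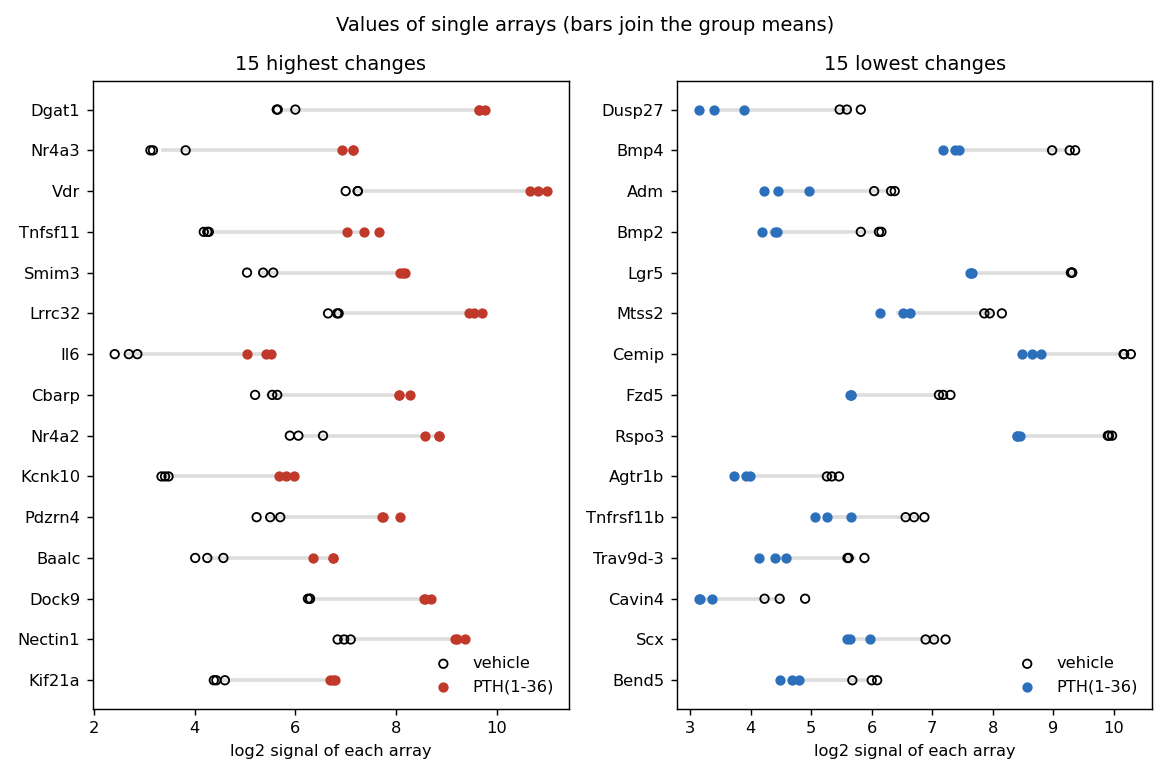
Log2 signal of each array for the 15 genes with the highest and the 15 with the lowest changes; open circles are the 3 vehicle arrays, filled circles the 3 PTH(1-36) arrays, and the grey bars join the group means. The filled and open circles do not overlap for any of the 30 genes, a property that the rule for choosing them required.

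Bmp4 and Bmp2, bone morphogenetic proteins that induce bone formation, fell. Bmp4 read 9.27, 9.36 and 8.98 with vehicle and 7.45, 7.37 and 7.17 with PTH(1-36), 3.66-fold lower (adjusted p = 1.30e-07). Bmp2 went from 6.12, 5.82 and 6.16 to 4.44, 4.40 and 4.18, 3.23-fold lower (adjusted p = 8.03e-08). Their antagonist Grem1 rose from 6.29, 6.16 and 6.26 to 7.91, 8.21 and 8.08, a 3.56-fold increase (adjusted p = 2.83e-10). Of the 37 measured genes of this list, 1 (2.70%) rose (2 without vehicle array 3) and 6 (16.2%) fell. Of the 6, 4 fell whichever array was left out. Over all genes 3.68% rose and 3.54% fell. The target gene Id3 was 1.44-fold lower, and the antagonist follistatin, Fst, 1.48-fold lower. Id1 and the receptor Bmpr1a did not pass (-0.32, adjusted p = 0.335, and -0.26, adjusted p = 0.0914).

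Rspo3 and Rspo2, of the R-spondins that strengthen Wnt signals, and the receptor Lgr5 fell as well. Lgr5 (cluster 17245059) read 9.31, 9.31 and 9.29 with vehicle and 7.62, 7.64 and 7.65 with PTH(1-36), 3.17-fold lower (adjusted p = 3.46e-11). A second, dimmer cluster of Lgr5 moved the same way (-1.01 ± 0.18). Rspo3 read 9.92, 9.97 and 9.90 with vehicle and 8.45, 8.40 and 8.40 with PTH(1-36), 2.85-fold lower. Rspo2 was 2.29-fold lower, while Rspo1 and Rspo4 did not pass (-0.06 and 0.00). The feedback inhibitors Nkd1 and Nkd2 fell by 0.65 ± 0.11 and 0.54 ± 0.10. Lgr4, the relative of Lgr5, rose instead, from 7.63, 7.52 and 7.52 to 8.42, 8.70 and 8.64, 2.04-fold higher, and the Wnt effector Lef1 rose by 0.91 ± 0.18. Thus 2 of 18 rose and 5 fell in the list, with a median of -0.06. Axin2, a common reporter of Wnt activity, did not pass (0.00 ± 0.14).

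The Wnt receptors split. Fzd5 read 7.18, 7.11 and 7.30 with vehicle and 5.64, 5.65 and 5.65 with PTH(1-36), 2.93-fold lower, and Fzd8 and Fzd2 fell 1.83-fold and 1.62-fold. Fzd6 rose 1.98-fold, Fzd1 1.33-fold and the co-receptor Ror1 2.31-fold. In the list of 49 ligands, receptors and inhibitors, 5 rose and 5 fell (3 and 3 without vehicle array 2), with a median of 0.02. The inhibitor Dkk1 and the ligand Wnt4 did not pass (-0.14, adjusted p = 0.777, and +0.78, adjusted p = 0.0626).

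In the transforming growth factor β list, 8 of 28 rose and 4 fell, 7 and 4 of them whichever array was left out. Lrrc32, which holds the latent growth factor at the cell surface, rose from 6.65, 6.83 and 6.86 to 9.70, 9.54 and 9.46, a 6.90-fold increase (adjusted p = 1.82e-12). Inhba, the activin A subunit, rose 1.69-fold, the target gene Tgfbi 1.61-fold and Smad3 1.56-fold. The ligands Tgfb2 and Tgfb3 fell 1.39-fold and 1.28-fold, and Thbs1, an activator of the latent form, 1.58-fold.

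Genes that define the osteoblast were read next. Of 27 bone matrix genes 1 (3.70%) rose, the mineralization inhibitor Mgp (+0.44 ± 0.07), and 0 fell, against 3.68% of all genes up and 3.54% down. Col1a1, the collagen of bone, was at 13.2 in both groups (-0.01, 95% interval -0.14 to 0.12), and Bglap (osteocalcin) was at 3.73 with vehicle and 3.72 with PTH(1-36). In the list of osteoblast transcription factors and differentiation, 0 of 14 rose and 2 (14.3%) fell: Sp7 (osterix), which read 6.14, 5.69 and 5.98 with vehicle and 5.42, 5.01 and 5.26 with PTH(1-36), and Zfp521 (-0.71 ± 0.10). The call of Sp7 was lost when the 6 arrays alone were fitted (adjusted p = 0.0642). The phosphatase Alpl was at +0.30 (95% interval 0.08 to 0.51, adjusted p = 0.0951). Of 13 osteocyte genes, 3 rose: Ackr3, a scavenger receptor of the chemokine Cxcl12, by 1.14 ± 0.12, the gap junction protein Gja1 by 0.89 ± 0.09 and podoplanin, Pdpn, by 0.84 ± 0.09. Sost, the Wnt inhibitor of osteocytes, was near 3.5 log2 units in both groups and did not pass (+0.04, 95% interval -0.32 to 0.41). Kcnk2 was lower by 0.58 ± 0.17, a call lost without vehicle array 1 or 2 or PTH(1-36) array 1 or 3.

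Of 25 chemokines 7 rose and 0 fell, and 6 of the 7 rose whichever array was left out. The median of the list was 0.20. Cxcl14 rose from 8.0, 8.11 and 7.92 to 10.17, 10.06 and 9.60, 3.82-fold higher (adjusted p = 1.44e-08). The monocyte attractants Ccl12, Ccl2 and Ccl7 rose 3.53-fold, 2.17-fold and 1.82-fold, the eosinophil attractant Ccl11 1.72-fold and the neutrophil attractant Cxcl5 1.88-fold. In the inflammation list 7 of 27 rose (4 without vehicle array 1) and 1 fell. The receptors Il1r1 and Il4ra rose 2.71-fold and 2.59-fold and the hyaluronan-binding Tnfaip6 2.51-fold, while the pentraxin Ptx3 was 1.89-fold lower. Of 15 prostaglandin genes 5 rose and 0 fell (3 without vehicle array 2 or PTH(1-36) array 2). The receptors Ptgfr and Ptger4 rose by 0.90 ± 0.11 and 0.78 ± 0.13 and the synthase Ptges by 0.40 ± 0.08. Ptgs2 (cyclo-oxygenase-2) stood at +0.91 ± 0.24, and its call was lost without vehicle array 2 or 3 or PTH(1-36) array 2 or 3 (adjusted p up to 0.121). Of 23 interferon-stimulated genes 1 (4.35%) rose, Ifit1 (+0.68 ± 0.13), and 0 fell (2 up without PTH(1-36) array 3). Of all genes 3.68% rose and 3.54% fell.

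**Figure D3:**
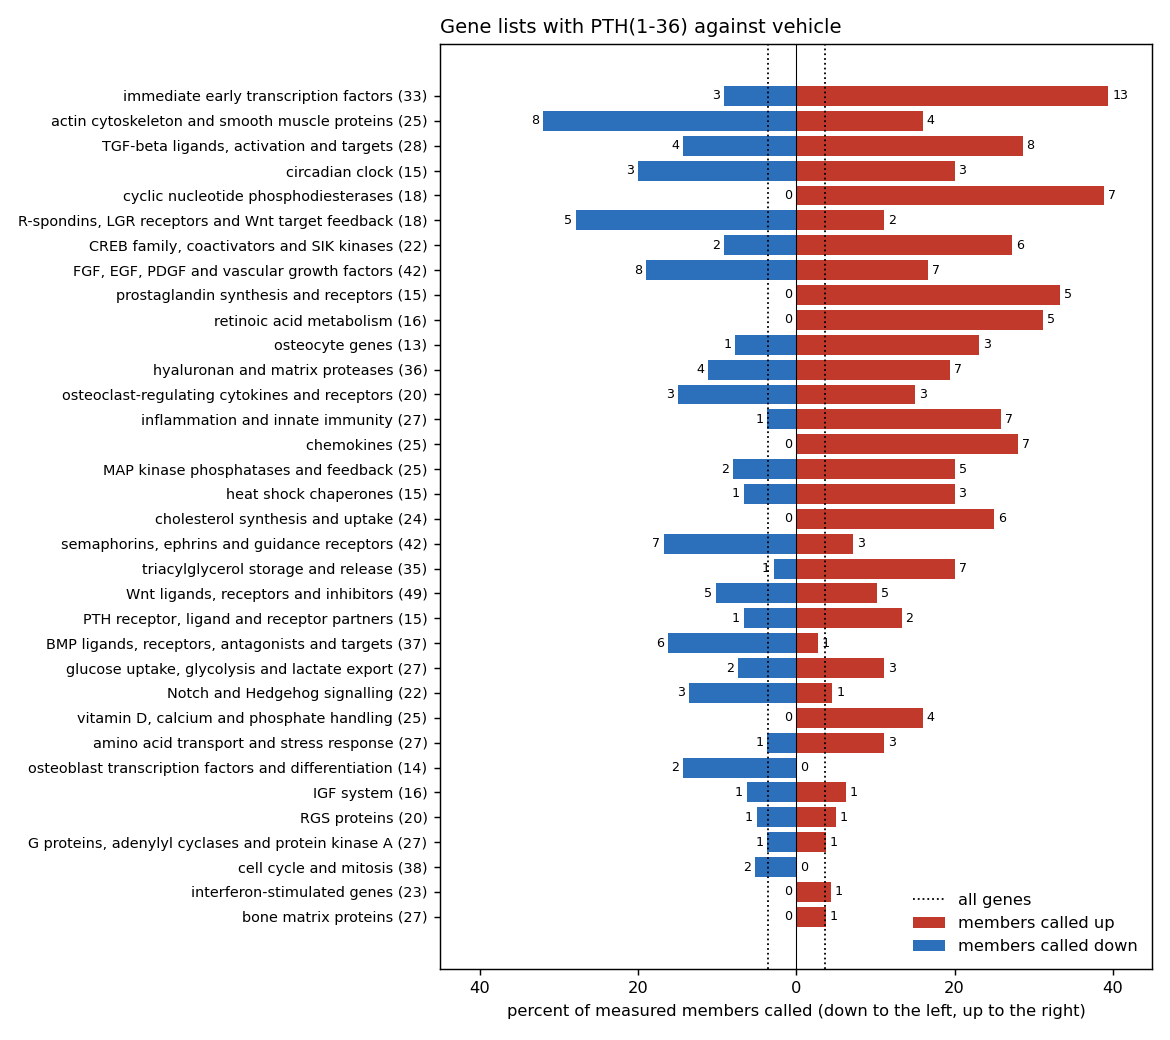
Percent of the measured members of each of 34 gene lists that were called up (red, to the right) or down (blue, to the left) with PTH(1-36); the number of measured members stands in parentheses, the numbers called beside the bars, and the dotted lines give the same shares for all 22180 genes (3.68% up, 3.54% down). Immediate early transcription factors and phosphodiesterases have the highest shares called up and actin and smooth muscle genes the highest share called down. Lists and members were chosen with earlier results of these data known.

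The growth factor list was divided, with 7 of 42 up (4 without vehicle array 1) and 8 down. Adm, the vasodilator adrenomedullin, read 6.04, 6.38 and 6.32 with vehicle and 4.46, 4.22 and 4.96 with PTH(1-36), 3.25-fold lower (adjusted p = 4.57e-06). Ccn2 and Ccn1, matricellular targets of the YAP coactivator, were 1.99-fold and 1.86-fold lower, and the receptors Pdgfrb and Egfr 1.79-fold and 1.53-fold lower. Fgf2 rose 1.65-fold and Vegfa 1.51-fold. Of 25 actin and smooth muscle genes 8 fell and 4 rose, with the lowest median of any list (-0.24), and 5 and 2 did so whichever array was left out (5 down without vehicle array 1 or PTH(1-36) array 3; 2 up without vehicle array 3 or PTH(1-36) array 2). Srf, the transcription factor that drives many of these genes, fell by 0.42 ± 0.09, vinculin, Vcl, by 0.59 ± 0.08 and Cnn2 by 0.61 ± 0.09. Calponin 1, Cnn1, went the other way, from 8.74, 8.75 and 8.63 to 10.61, 10.70 and 10.44, 3.67-fold higher, as did Synpo2 (3.56-fold). Acta2 did not pass (-0.20, 95% interval -0.38 to -0.02).

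Insulin-like growth factor signalling showed 1 large decrease. Irs1, the docking protein of the insulin and IGF-1 receptors, read 8.94, 8.99 and 8.99 with vehicle and 7.93, 7.77 and 7.87 with PTH(1-36), 2.17-fold lower (adjusted p = 3.28e-08). A second, dimmer cluster of Irs1 (mean 4.68) read -0.51 ± 0.16. Igfbp5 rose by 0.38 ± 0.07, and Igf1 did not pass (+0.13, 95% interval -0.04 to 0.31), so 1 of 16 rose and 1 fell (2 down without vehicle array 3). Each is 6.25% of the list, against 3.68% of all genes up and 3.54% down. Of 25 genes of MAP kinase feedback 5 rose, among them Dusp10 (1.67-fold) and Dusp1 (1.54-fold), and 2 fell. Dusp27, an atypical member of the dual-specificity phosphatases known from muscle, had the lowest change of all, from 5.59, 5.47 and 5.82 to 3.14, 3.89 and 3.40, 4.44-fold lower (adjusted p = 5.75e-07). Map2k6, the kinase above p38, was 1.80-fold lower. In Notch and Hedgehog signalling, 3 of 22 fell, with the Notch ligand Jag1 1.92-fold and the Hedgehog transducer Smo 1.40-fold lower, and 1 was called up, a call absent without vehicle array 1 or 2 or PTH(1-36) array 1 or 2. Of 42 guidance genes 3 rose and 7 fell (4 without PTH(1-36) array 2), among the latter the receptors Epha3 (1.66-fold), Ephb3 (1.59-fold) and Plxna1 (1.53-fold).

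Of 16 retinoic acid genes 5 rose and 0 fell, with a median of 0.19. Aldh1a3 and Rdh10, enzymes of retinoic acid synthesis, rose 3.06-fold and 2.74-fold, the binding protein Crabp2 2.19-fold and the receptor Rara 1.53-fold. Genes of thyroid hormone handling, grouped after their values were seen, also stood among the extremes. Dio2 read 4.16, 3.95 and 3.75 with vehicle and 5.75, 5.88 and 6.18 with PTH(1-36), and Iyd, which recovers iodide, rose 4.53-fold. The thyroid hormone receptor Thrb was 2.25-fold lower, at 5.44, 4.94 and 4.71 against 3.89, 3.77 and 3.92.

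The circadian clock list had 3 of 15 up and 3 down. Arntl (BMAL1) rose 1.81-fold and Rorb 2.40-fold, and the output factors Dbp, Tef and Per3 fell 2.01-fold, 1.59-fold and 1.66-fold. Per1, an early cyclic AMP target, did not pass at 4 h (+0.13, 95% interval -0.12 to 0.38). In the glucose list, the lactate transporter Slc16a1 rose from 6.92, 7.13 and 6.67 to 8.87, 8.74 and 8.56, 3.52-fold higher. The other 2 increases and 2 decreases among its 27 genes depended on single arrays (1 up without vehicle array 1 or PTH(1-36) array 1 or 3; 0 down without vehicle array 1 or 2, and 1 down without any other). The glucose list thus had 11.1% up and 7.41% down, against 3.68% and 3.54% of all genes. Of 27 genes of amino acid transport and stress, 3 (11.1%) rose, led by Slc7a5 (2.14-fold). Slc38a2, 3.70% of that list, fell 1.52-fold (2 down without PTH(1-36) array 2). The chaperone Hsph1 rose 2.90-fold, in a list of 15 with 3 up (20%) and 1 down (6.67%). That list had 0 down without vehicle array 1 or 2 or PTH(1-36) array 1 or 3. Of 38 cell cycle genes 0 rose and 2 (5.26%) fell, against 3.54% of all genes down. These were Mki67 (by 0.46 ± 0.10) and Cdc20 (by 0.45 ± 0.08). Together the 34 lists held 861 measured genes, and 213 passed the test (135 increases, 78 decreases). Over all genes 7.23% passed. The lists were chosen with earlier results of these data known, so a higher share in them is not separate evidence. The call stood whichever array was left out for 154 of the 213, and it stood for 118 when the 6 arrays alone were fitted. The genes of these lists given as called that were not called in that fit (adjusted p from 0.0512 to 0.292) were Csf1, Prkar1a, Pde9a, Rgs2, Sik2, Mef2a, Fosb, Has1, Plin3, Cyp51, Hmgcs1, Xpr1, Stc1, Nkd1, Nkd2, Lef1, Fzd1, Tgfb2, Tgfb3, Mgp, Sp7, Kcnk2, Ccl11, Ptges, Ptgs2, Ifit1, Kdr, Vegfa, Srf, Igfbp5, Smo, Rara, Mki67 and Cdc20.

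Of the 60 genes with the 30 highest and 30 lowest changes, 39 belonged to none of the lists. Among those that rose were Smim3, a small membrane protein (7.01-fold), Cbarp, a regulator of calcium channels (6.33-fold), Kcnk10, a two-pore potassium channel (5.33-fold), Pdzrn4 (5.17-fold), Baalc (5.05-fold), Dock9, an exchange factor for Cdc42 (5.03-fold), the adhesion molecule Nectin1 (4.88-fold), the kinesin Kif21a (4.82-fold) and Cd24a (4.75-fold). Cntfr, the receptor for ciliary neurotrophic factor, rose 4.01-fold, and Nmrk1, which makes a precursor of NAD, 4.25-fold. Among those that fell were Mtss2 (2.95-fold), the angiotensin receptor Agtr1b (2.78-fold), the tendon transcription factor Scx (2.48-fold), the homeobox factor Meox2 (2.31-fold), Nexn, an actin-binding protein (2.30-fold), the Wnt modulator Dact1 (2.22-fold) and the orphan receptor Gpr176 (2.20-fold). Second, dimmer clusters of Cd24a (mean 3.02) and Dact1 (mean 3.99) read +0.68 ± 0.35 and -0.26 ± 0.21, smaller changes than those of the clusters used. The calls of 4 of the 60 depended on the fit. Trav9d-3, a T cell receptor segment at -1.33, was lost without vehicle array 2 or PTH(1-36) array 3 (adjusted p = 0.0654 and 0.0682), and its other 4 clusters ran from -0.11 to +0.17. Klk1, at -1.12, was lost without vehicle array 1 or 2 or PTH(1-36) array 1 or 3 (adjusted p up to 0.182). Ankrd34a and Cys1 were lost when the 6 arrays alone were fitted (adjusted p = 0.0633 and 0.0966).

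Markers of the cells that such cultures can hold were compared in the same arrays. The osteoblast markers had an average level between 8.79 and 9.05 log2 units in the vehicle arrays and between 8.72 and 8.85 with PTH(1-36), and 1 of 8 was called, Sp7. The 17 macrophage markers averaged 9.09 to 9.25 with vehicle and 8.87 to 9.18 with PTH(1-36), with Lyz2 at 12.2 and 12.1, and 0 of 17 were called (changes from -0.23 to 0.03). Levels of different genes on an array are not compared. The part of macrophages in the cytokine and chemokine results was not tested. The 9 osteoclast markers had means of 5.03 to 5.21 and 5.12, with Calcr at 2.60 and 2.62, and 0 were called. Of 10 endothelial markers, Tek fell by 0.83 and Kdr was called up (+0.61, lost without vehicle array 1 or PTH(1-36) array 1), with Pecam1 at 3.66 and 3.47. Sox6 of 13 cartilage markers (-0.85, 7.69% of the list) and Pparg of 10 fat markers (-0.72, 10%) fell. Tubb3 of 6 nerve and glia markers rose (+1.15, 16.7%). Over all genes 7.23% were called, 3.68% up and 3.54% down. Single calls in lists this short were not read as a change of a cell type. None of the 10 skeletal muscle or the 6 erythroid and lymphoid markers passed the test.

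The series also allows PTH(1-36) to be set against the other fragments given at the same dose and time. PTH(1-36) differed from hPTH(1-34) in 1 gene (0.00451% of 22180) and from hPTH(1-31) in 1 gene (0.00451%). Of the 22180 genes, 1423 and 1257 had an unadjusted p under 0.05, and a 0.05 share falls there when no gene differs. Prg4, which encodes the joint lubricant lubricin, was the gene that differed from hPTH(1-34). It read 6.06, 6.05 and 5.87 with vehicle, 7.66, 7.16 and 7.01 with PTH(1-36), 8.43, 8.28 and 8.15 with hPTH(1-34), and 7.93, 8.04 and 7.95 with hPTH(1-31). The PTH(1-36) arrays lay above all vehicle arrays and below all arrays of both other fragments. The difference from hPTH(1-34) was -1.01 log2 units (95% interval -1.29 to -0.73, adjusted p = 0.0144) and that from hPTH(1-31) -0.70 (-0.98 to -0.41, adjusted p = 0.363). The call was lost without PTH(1-36) array 2 or 3 (adjusted p = 0.0980 and 0.0979) or hPTH(1-34) array 1 or 2 (0.201 and 0.119), and when the arrays compared were fitted alone (adjusted p = 0.880). Map2k6 was the gene that differed from hPTH(1-31). It read 5.81, 5.43 and 5.74 with vehicle, 4.58, 4.84 and 5.01 with PTH(1-36), 4.10, 3.82 and 4.01 with hPTH(1-31), and 4.60, 4.68 and 4.53 with hPTH(1-34). The PTH(1-36) arrays lay between those of vehicle and hPTH(1-31), 0.83 log2 units above the latter (95% interval 0.59 to 1.08, adjusted p = 0.0330). That call was lost without PTH(1-36) array 2 or 3 (0.245 and 0.0978) or any hPTH(1-31) array (up to 0.202), when all transcript clusters were tested (0.0881) and when the arrays compared were fitted alone (0.992).

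Next to the threshold against hPTH(1-34) stood Olfr1477 and Gm17019 (limma adjusted p = 0.0587 each), then Ccr10, Lgr5 and Cxcl14 (0.0833 each). The vehicle means of Olfr1477, Gm17019 and Ccr10 (2.13, 1.32 and 3.50) lie below the array medians, and their differences were -0.64, +0.76 and -0.78. Lgr5 and Cxcl14, with vehicle means of 9.30 and 8.01, are given in full. Lgr5 read 7.62, 7.64 and 7.65 with PTH(1-36) and 7.29, 7.20 and 7.19 with hPTH(1-34), a difference of 0.41 (95% interval 0.26 to 0.56, adjusted p = 0.0833). Cxcl14 read 10.17, 10.06 and 9.60 with PTH(1-36) and 10.82, 10.85 and 10.44 with hPTH(1-34), a difference of -0.76 (-1.04 to -0.48, adjusted p = 0.0833). In both the arrays of the fragments did not overlap, and both changes from vehicle were smaller with PTH(1-36). In name PTH(1-36) is longer than hPTH(1-34) and hPTH(1-31) at its carboxyl end. Of the 1603 genes called with PTH(1-36), the 95% interval of the difference lay within 1.5-fold in either direction for 1455 (90.8%) against hPTH(1-34) and for 1446 (90.2%) against hPTH(1-31). Over all 22180 genes it did so for 17305 and 17475. That interval held 0 for 49 and 45 of the 60 genes with the highest and lowest changes. These 60 were themselves chosen on the PTH(1-36) arrays. Over all 22180 genes the interval left out 0 (unadjusted limma p under 0.05) for 1423 against hPTH(1-34) and 1257 against hPTH(1-31). Against both fragments it thus left out 0 in a larger share of the 60 than of all genes.

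**Figure D4:**
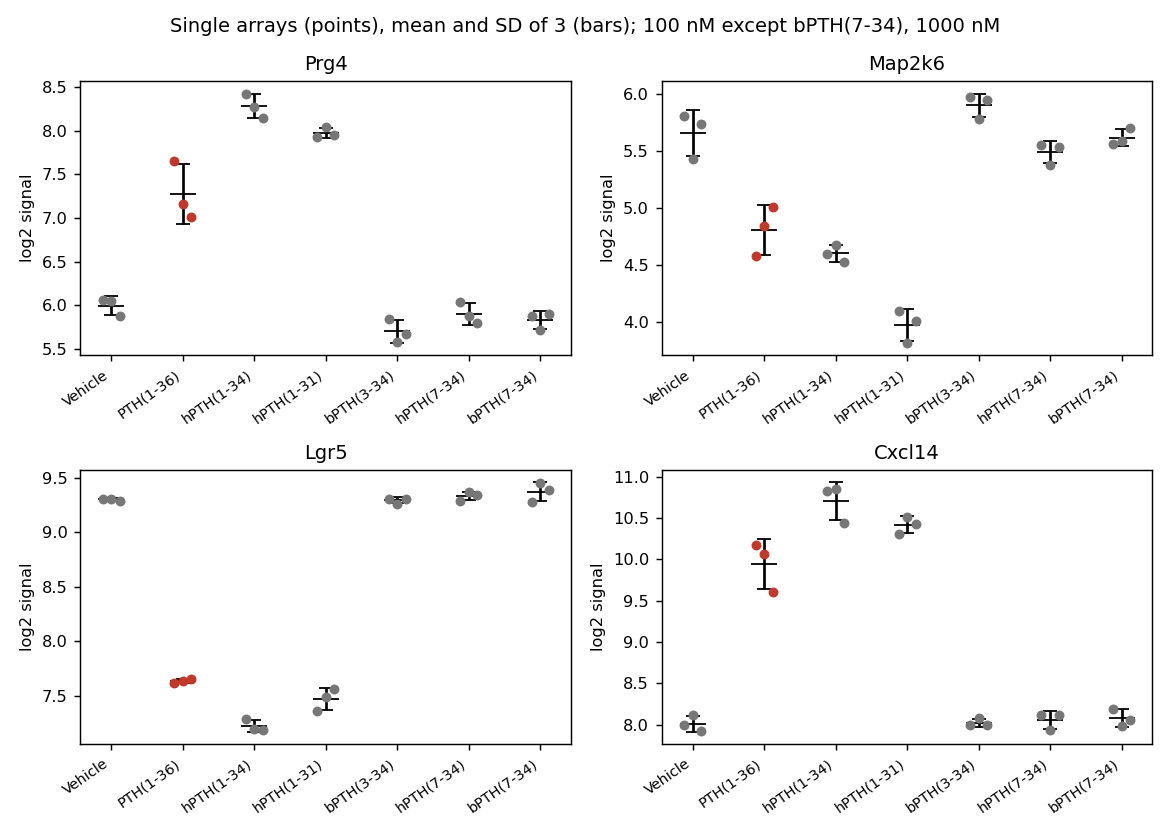
Log2 signal of Prg4, Map2k6, Lgr5 and Cxcl14 in each array of the 7 groups (points, PTH(1-36) in red), with the mean and standard deviation (SD) of 3 arrays as bars. PTH(1-36) lies between vehicle and hPTH(1-34) for Prg4 (7.28 ± 0.34 against 8.29 ± 0.14), Lgr5 and Cxcl14, and above hPTH(1-31) for Map2k6 (4.81 ± 0.22 against 3.98 ± 0.14).

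Each fragment was compared with the same 3 vehicle arrays, so the changes are given side by side and not as separate evidence. For Dgat1 they were +3.93 with PTH(1-36), +4.00 with hPTH(1-34) and +3.98 with hPTH(1-31), and +0.14, +0.17 and +0.25 with bPTH(3-34), hPTH(7-34) and bPTH(7-34). Tnfsf11 showed +3.11, +3.12 and +3.12 with the fragments that keep the first residues, and +0.45, +0.35 and -0.03 with the truncated ones. For Bmp4 the changes were -1.87, -1.97 and -2.05, and +0.02, +0.06 and -0.09. Over the 30 genes with the highest changes the median was 2.26 with PTH(1-36), 2.35 with hPTH(1-34) and 2.42 with hPTH(1-31), and over the 30 with the lowest it was -1.27, -1.45 and -1.46. With bPTH(3-34) the same 30 highest genes lay between -0.27 and 0.45, with hPTH(7-34) between -0.18 and 0.61, and with bPTH(7-34), at its higher dose, between -0.21 and 0.51. Klk1 differed from the others. Its vehicle arrays read 2.77, 3.14 and 2.36, and its mean was lower with every fragment, with changes of -1.12 with PTH(1-36) and of -1.14, -1.09, -1.08, -0.95 and -1.14 with the other 5. With the 3 truncated fragments the decrease did not pass the test. All of these levels lie below the array medians, and the call with PTH(1-36) was also lost with the replicate block (adjusted p = 0.0538), with arrays centred on their medians (0.0515) and with all transcript clusters (0.0924).

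**Figure D5:**
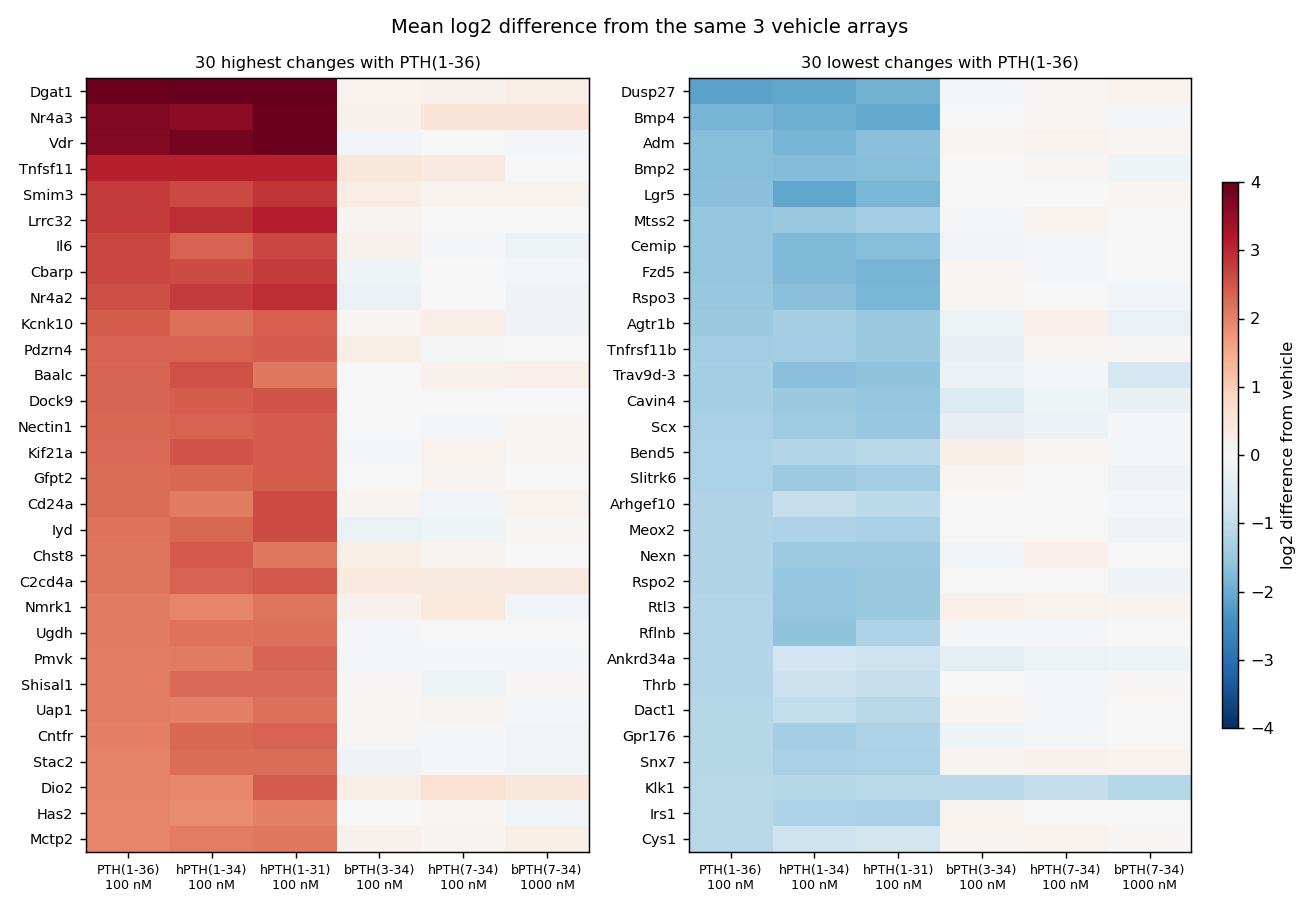
Mean log2 difference from the same 3 vehicle arrays for the 30 genes with the highest (left) and the 30 with the lowest (right) changes with PTH(1-36), in columns for the 6 fragments with their doses; red is higher and blue lower than vehicle. The first 3 columns are red or blue throughout and the last 3 mostly near white, while Klk1 is blue in all 6.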

How the data were processed

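The deposited table of 41345 transcript clusters on 21 Affymetrix Mouse Gene 2.0 ST arrays was used. Per the submitters' processing notes the authors used RMA and Affymetrix Expression Console. Versions, steps and the base of the logarithm are not given in the sources used here, and the deposited values, 0.25 to 13.6, were read as log2. Each array had 100 ng of RNA. Of the clusters, 23521 carried 1 gene symbol in the platform annotation, 1814 several and 16010 none, which gave 22180 genes.

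The 21 arrays were fitted in 1 limma model of 7 groups (limma 3.58.1, R 4.3.3, lmFit and eBayes) with 14 residual degrees of freedom. Tests were two-sided, adjusted by Benjamini-Hochberg over all genes, and called at adjusted p under 0.05. Calls by limma were first checked on simulated data. No low-signal filter was used.

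The genes named are the 30 highest and 30 lowest changes among called genes whose arrays do not overlap, members of 34 lists and 9 marker lists, and genes that differ between fragments. Members, lists and the rule were chosen with earlier results of these data known. Precision is limited by the number of arrays: the half-width of the 95% interval had a median of 0.23 log2 units over called genes. Alternatives were other priors, scalings, filters, array subsets and the replicate number as a block.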

Additional observations from a re-analysis of the deposited data

Results flagged for a closer look

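A signal was seen in data outside the comparison. Of 17824 transcript clusters without a single gene symbol, 193 (1.08%) passed the test with PTH(1-36) against vehicle, 117 up and 76 down. They comprised 55 of 1814 clusters with several symbols (3.03%) and 138 of 16010 that the annotation did not list (0.862%). The highest, cluster 17212211, had 5.48 ± 0.07 log2 units with vehicle and 9.01 ± 0.07 with PTH(1-36) (SD, 3 arrays each; change +3.53 ± 0.09, SE; limma adjusted p = 1.89e-13), and no gene can be named for it here.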

How the results depend on the processing

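The 1603 calls became 606 (370 up, 236 down) with only the arrays compared and ranged from 1160 to 1499 with 1 array left out, and the 701 at 1.5-fold or more from 655 to 743. With the replicate block, a trend and robust prior, a mean of at least 4, arrays centred on their medians, quantile normalization and all transcript clusters they were 1945, 2053, 2222, 1474, 1698 and 1407. The 1 gene against hPTH(1-34) became 3 with the trend and robust prior, a mean of at least 4 or quantile normalization, 2 with all clusters and 0 with only the arrays compared. The 1 gene against hPTH(1-31) became 0 with all clusters or only the arrays compared. With 1 array left out each ranged from 0 to 3. Lgr5 and Cxcl14 passed against hPTH(1-34) with the trend and robust prior (adjusted p = 0.00879 and 0.00992) and with a mean of at least 4 (0.0340 and 0.0419), and Cxcl14 also without hPTH(1-34) array 3 (0.0451). Deviations of same-numbered PTH(1-36) and vehicle arrays from their group means correlated at 0.01, -0.01 and 0.09. With hPTH(1-34) the values were 0.01, 0.05 and 0.06, and with hPTH(1-31) 0.05, 0.03 and 0.10. The labels state no pairing, so the numbers were not taken as pairs. The block result, with 1945 calls, shared 1581 of the 1603. An effect shared by arrays of 1 number was not tested. In each of the 13 alternatives 0 of the shared calls had the opposite direction. Of 776 values of the 60 genes with the highest and lowest changes, 765 kept direction and call, 11 lost the call and 0 reversed. The array number and a low signal (9925 genes with a vehicle mean under 4) limit what could be called.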
